A study of Rattus norvegicus with 6 samples.

Results

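Aminoacyl-tRNA synthetases are the enzymes that join each amino acid to its tRNA, the step that supplies charged tRNA to the ribosome. Genes were taken by their symbols in the deposited expression table, and 39 of its 17273 genes matched. They comprise 20 genes of cytosolic synthetases, the scaffold genes Aimp1 and Aimp2, and 17 genes of mitochondrial synthetases, whose symbols end in 2. Aimp2 also ends in 2 but encodes a scaffold of the cytosolic complex, so it was counted with the cytosolic set, which then had 22 genes. All 39 passed the filter on low counts. The RNA came from wild-type nucleus pulposus cells, the cells of the core of the intervertebral disc, of male Sprague Dawley rats, cultured in DMEM with fetal bovine serum. The control group of 3 libraries had no treatment, and the lactate group of 3 libraries was given 10 mM lactate for 8 h. Neither the chemical form of the lactate (free acid or sodium salt) nor the age of the rats is stated. Separate cultures or animals are not named for the libraries either, so the p-values measure library-to-library spread, part of which may be technical.

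Animal cells run protein synthesis in the cytosol and, with a separate and smaller apparatus, in mitochondria, where the few proteins encoded by mitochondrial DNA are made. Most amino acids have a cytosolic enzyme and a mitochondrial enzyme from different nuclear genes. Gars and Kars each give both forms from 1 gene, Eprs joins glutamate and proline to their tRNAs in 1 protein, and mitochondrial glutaminyl-tRNA is made by an indirect route with no glutaminyl synthetase. Synthetases fall into class I and class II by the fold of their active site. Several cytosolic enzymes are bound together with the scaffolds Aimp1, Aimp2 and Eef1e1 in a multisynthetase complex. The transcription factor ATF4, which acts when cells lack amino acids or carry misfolded protein, is known to raise many cytosolic synthetase genes.

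Libraries held 30291357 to 38989574 counts, and a member had between 12 and 36598 counts in a library. The factors that bring libraries to a common scale (TMM factors, which assume that most genes keep their level) were 1.33 to 1.36 for the controls and 0.702 to 0.806 after lactate, so the direction of small changes depended on the scale. The median over all tested genes was -0.10 (log2, lactate over control) on the TMM scale and -0.96 when libraries were scaled by their totals alone. Below, a gene rose or fell where edgeR's quasi-likelihood test with TMM factors gave an adjusted p under 0.05, and the value with library totals stands beside it where the call differs. FPKM, which the authors scaled by transcript length and library total, gives the levels, and compares genes with each other. Of the 15 nucleus pulposus and notochord markers 13 were in the table, with a summed level of 2550 to 2860 CPM (counts scaled for library size with TMM factors) in control libraries and 2470 to 2810 after lactate. Most of that sum was Acan (mean 2393 and 2290 CPM), and of the 11 markers tested 2 rose (Cd24 2.32, Sox9 1.45), 3 fell (Foxa2 -1.97, Cdh2 -1.11, Pax1 -0.88) and 6 were not called. Tbxt and Krt19, which define notochordal cells, had 12 and 9 counts in control and 0 in lactate libraries. The 6 annulus and fibroblast markers present summed to 29600 to 35400 CPM in control libraries and to 101000 to 145000 after lactate, nearly all of it Col1a1 (mean 31780 and 124400 CPM). Of these 6 markers 3 rose (Col1a1 1.97, Thy1 1.24, Dcn 1.09), 2 fell (Mkx -2.36, Pdgfra -1.42) and Scx, at 0.10, was not called. The 4 macrophage markers summed to 9.61 to 10.7 and 4.09 to 5.40 CPM, mostly Cd14, which fell by 1.72 while Cd68 rose by 1.48, and the 3 endothelial markers to 0.116 to 0.488 and 0.210 to 0.680. Sox9, Dcn and Cd68 were not called with library totals. In that setting 1 of the 11 nucleus pulposus markers tested was called higher and 7 lower, against 12.5% and 61.8% of all genes. The 7 include Acan (-0.92), Krt8 (-1.21), Ca3 (-1.09) and Nog (-1.82), which were not called with TMM factors. Scx was also called lower with library totals (-0.78). The part of these shifts in the results below was not tested. In RNA from whole cultures, fewer cells of a type and less RNA per cell cannot be told apart.

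Lactate did not move the synthetase genes as a block. Of the 22 cytosolic genes 7 rose, 11 fell and 4 were not called, and of the 17 mitochondrial genes 3 rose, 10 fell and 4 were not called. Over all 13747 tested genes 31.4% were called higher and 34.6% lower, 66.0% in either direction. The mitochondrial share called higher, 17.6%, was below that of all genes and the share called lower, 58.8%, above it. Of the cytosolic genes 31.8% were called higher, a share near that of all genes. The 11 of 22 cytosolic genes called lower made a larger share than the 34.6% of all genes, as in the mitochondrial set. The median log2 fold change was -0.21 for the cytosolic and -0.85 for the mitochondrial set. With library totals 2 cytosolic genes were called higher and 18 lower, with a median of -1.07, and 1 mitochondrial gene was called higher and 13 lower, with a median of -1.71. In that setting 12.5% of all genes were called higher and 61.8% lower, 74.3% in either direction. Falls of at least 2-fold on the TMM scale were seen in 4 cytosolic and 6 mitochondrial genes and rises of that size in 2 and 1, against 22.5% and 18.1% of all genes. By the values themselves, all lactate libraries stood above all controls in TMM-scaled CPM for 7 cytosolic and 3 mitochondrial genes and below them for 11 and 11, where 33.7% of all genes stood above and 38.4% below (72.2% together). In deposited FPKM 2 cytosolic genes and 1 mitochondrial gene stood above and 18 and 15 below, where 14.0% of all genes stood above and 64.6% below (78.6% together). The calls that stood on both scales were the 11 cytosolic and 10 mitochondrial genes that fell, and Qars1, Rars1 and Hars2, which rose. The log2 fold changes of the members in the authors' deposited table differed from these by at most 0.05, and 35 of the 39 were on the same side of an adjusted p of 0.05.

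**Figure D1:**
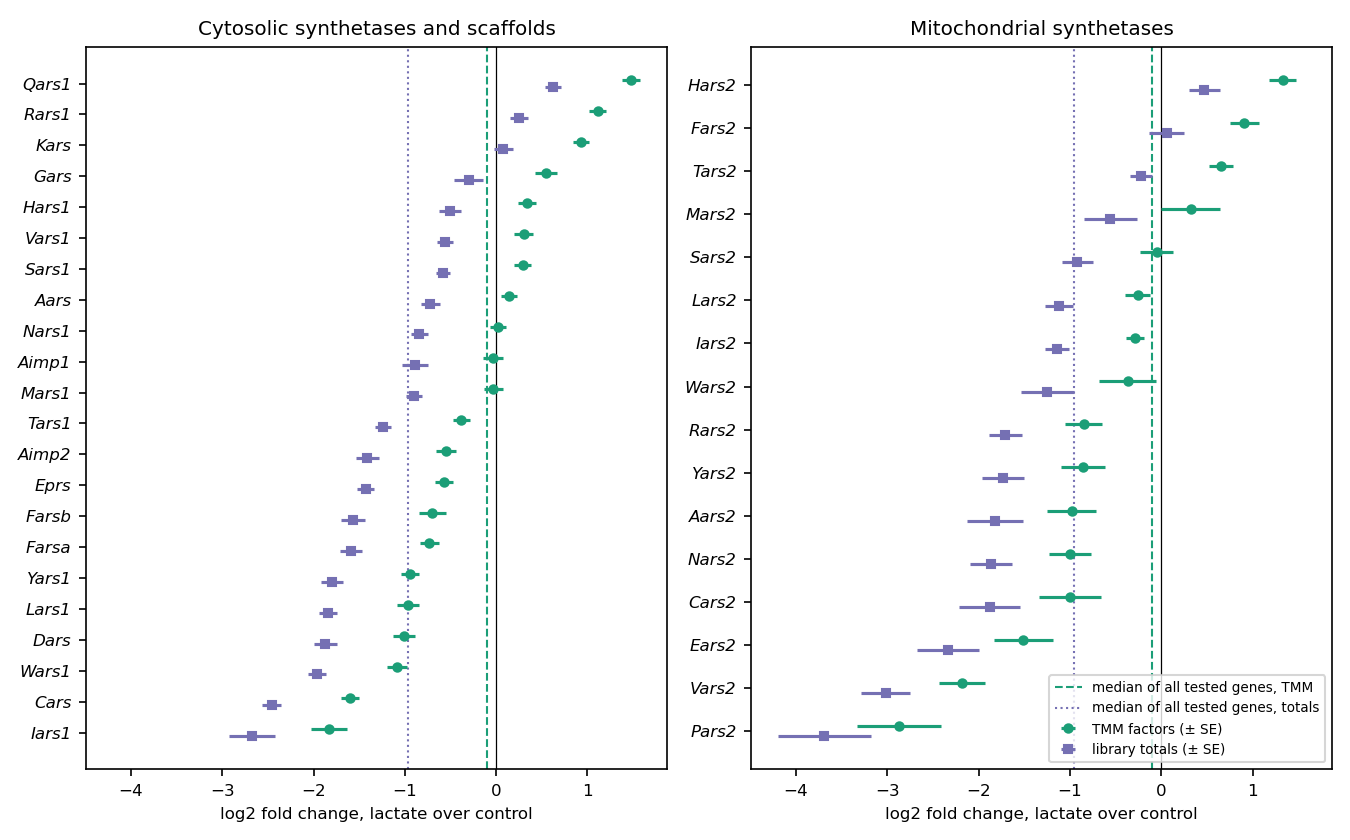
Log2 fold change of the members, lactate over control, with its standard error, for TMM factors (circles) and for library totals (squares); dashed and dotted lines are the medians of all tested genes on the 2 scales. The cytosolic genes run from 1.48 for Qars1 to -1.83 for Iars1 and the mitochondrial genes from 1.33 for Hars2 to -2.87 for Pars2 with TMM factors.

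Among the cytosolic genes that rose, Qars1 (glutamine) had the largest change. Its FPKM was 46.6, 45.0 and 40.9 in the control libraries and 64.5, 69.8 and 67.7 in the lactate libraries. All 3 lactate libraries stood above all controls. Qars1 rose by 1.48 ± 0.10 (log2, SE; edgeR adjusted p = 6.8e-06) on the TMM scale and by 0.62 with library totals. Rars1 (arginine) had 48.7, 47.7 and 46.3 FPKM in control and 56.6, 51.8 and 60.5 in lactate libraries, again with no overlap. It rose by 1.11 ± 0.09 (edgeR adjusted p = 1.1e-05), and by 0.25 with library totals (edgeR adjusted p = 0.045). Kars (lysine) was at 63.5, 64.4 and 69.0 FPKM in control and 66.7, 64.0 and 75.4 in lactate libraries. These groups overlapped, and Kars was called higher with TMM factors (0.93 ± 0.09, edgeR adjusted p = 2.5e-05) but not with library totals (0.08). Gars (glycine) had the highest mean level of the members after lactate, though in lactate replicate 2 Sars1 stood above it (110.3 against 100.2 FPKM). It stood at 157, 153 and 147 FPKM in control libraries and at 111, 100 and 157 in lactate libraries, of which the last was level with the highest control. Gars was called higher with TMM factors (0.55 ± 0.12, edgeR adjusted p = 0.0040) and not with library totals (-0.30). Hars1, Vars1 and Sars1 (histidine, valine, serine) were called higher by 0.34, 0.30 and 0.29 with TMM factors and lower by 0.51, 0.56 and 0.58 with library totals, so their direction depends on the scale. Vars1 also lost the TMM call without control replicate 2 or 3 or lactate replicate 1 or 2 (edgeR adjusted p up to 0.10), and Sars1 without control replicate 3 or lactate replicate 1 or 2 (edgeR adjusted p up to 0.098) and with the length trend removed (0.22, edgeR adjusted p = 0.067).

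The falls were larger. Iars1 (isoleucine) fell most, from 39.6, 30.4 and 31.2 FPKM in control to 4.21, 4.10 and 7.43 in lactate libraries. The third lactate library was the highest of its group, yet far below every control, and Iars1 fell by 1.83 ± 0.20 (edgeR adjusted p = 6.5e-05). Cars (cysteine) had the smallest adjusted p of the members (edgeR, 3.5e-06) and a narrow spread, with 44.7, 44.1 and 43.5 FPKM in control and 7.58, 7.92 and 8.42 in lactate libraries. It fell by 1.60 ± 0.10 on the log2 scale. Wars1 (tryptophan) went from 70.5, 80.2 and 69.0 to 19.0, 18.4 and 18.0 FPKM and fell by 1.09 ± 0.11 (edgeR adjusted p = 3.9e-05). Dars (aspartate) went from 48.4, 38.4 and 39.3 to 11.9, 10.6 and 11.8 FPKM and fell by 1.01 ± 0.12 (edgeR adjusted p = 0.00011). In neither gene did the groups overlap. Lars1 (leucine, -0.97), Yars1 (tyrosine, -0.94), Eprs (-0.57) and Tars1 (threonine, -0.38) fell as well. Both chains of the cytosolic phenylalanine enzyme fell to a like extent, Farsa, the catalytic chain, at -0.73 ± 0.10 and Farsb at -0.70 ± 0.15. Aars, Nars1 and Mars1 (alanine, asparagine, methionine) were not called with TMM factors (0.14, 0.02 and -0.03) and were called lower with library totals (-0.72, -0.84 and -0.90). Aars was called higher with the length trend removed (0.31, edgeR adjusted p = 0.013).

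The order of the cytosolic genes by level changed with these moves. In control libraries Eprs was first at 174 ± 14.6 FPKM (SD, n = 3), followed by Sars1 at 162 ± 5.31 and Gars at 152 ± 4.82, neighbours that did not differ beyond their spread. After lactate Gars was at 123 ± 30.3 and Sars1 at 108 ± 3.28, which did not differ beyond their spread, and Eprs was seventh at 63.8 ± 1.29. As a share of the summed FPKM of the cytosolic set, which does not depend on the scale between libraries, Qars1 went from 2.72% ± 0.102 to 7.33% ± 0.612 and from rank 15 to rank 6. Rars1 went from 2.93% ± 0.0145 to 6.11% ± 0.221 and Kars from 4.04% ± 0.300 to 7.45% ± 0.119. Iars1 went from 2.07% ± 0.273 to 0.562% ± 0.157, the lowest share of the set, and Cars from 2.71% ± 0.0442 to 0.866% ± 0.0341. Nars1, at 8.55% ± 0.299 and 8.50% ± 0.269, kept its share within the spread.

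**Figure D2:**
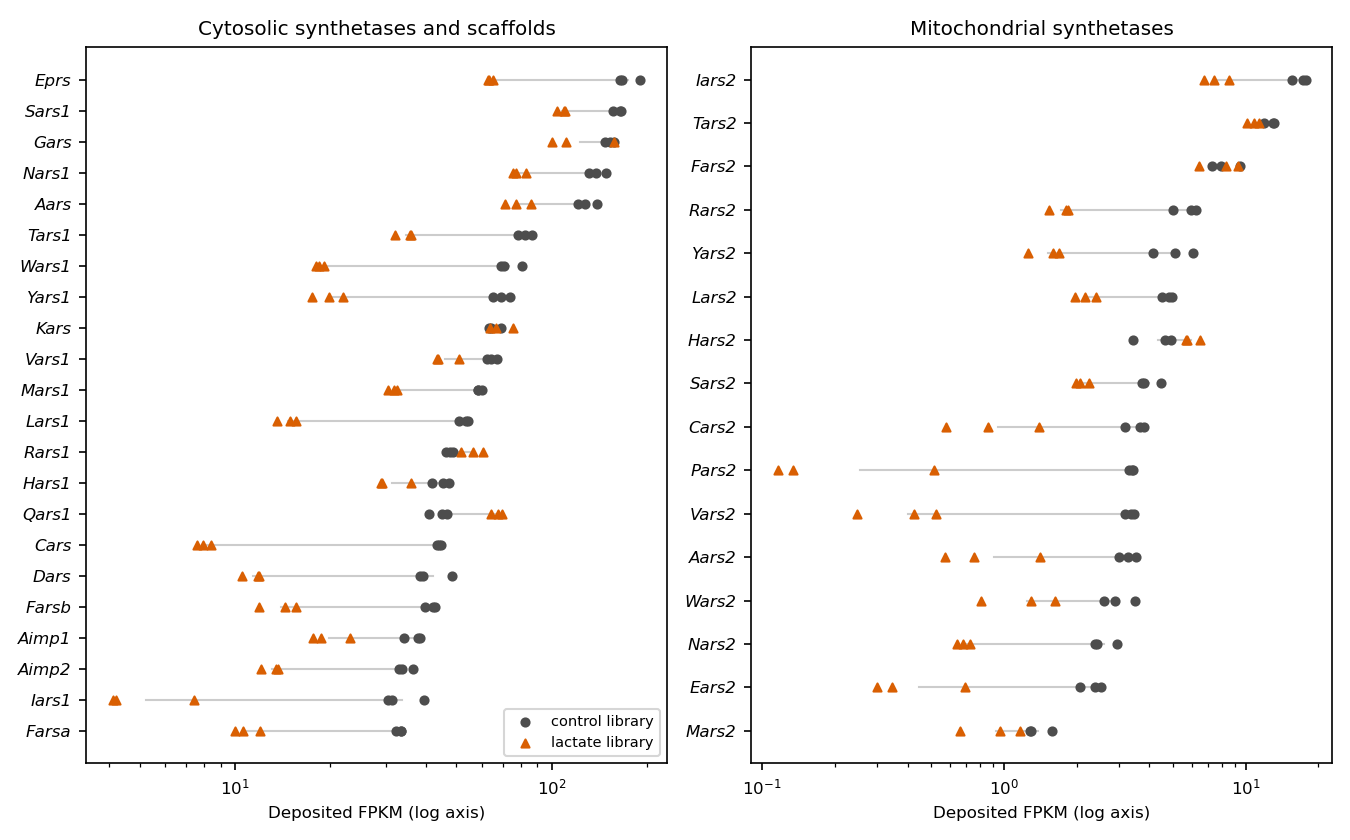
Deposited FPKM of the members in each library on a log axis, control as circles and lactate as triangles, with a line between the group means; genes are ordered by their control mean. Among cytosolic genes the control means run from 33.0 to 174 FPKM and among mitochondrial genes from 1.39 to 16.9, and in Qars1, Rars1 and Hars2 all lactate points lie to the right of the control points.

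Cytosolic genes stood among the most abundant genes of the cells, where rises were common. When the tested genes were divided into 5 equal groups by mean log2 CPM, 18 of the 22 cytosolic genes were in the highest, and of these 7 rose, 8 fell and 3 were not called. Over all 2750 genes of that group 59.2% were called higher and 19.8% lower, with a median log2 fold change of 0.55. Of the mitochondrial genes 12 were in the second lowest group, and of these 0 rose, 9 fell and 3 were not called, where the 2749 genes of the group had 18.9% higher and 45.2% lower and a median of -0.53. Fold changes in these data also follow transcript length. With that trend removed the medians were -0.27 for the cytosolic and -0.78 for the mitochondrial set, with 7 and 3 genes higher (Aars in, Sars1 out) and 12 and 9 lower (Aimp1 in, Iars2 out), against 29.0% higher and 35.2% lower over all genes (64.2% together). Limma's trend test on log2(FPKM + 1) called 2 cytosolic members higher and 18 lower and 1 mitochondrial member higher, against 13.0% higher and 63.7% lower over all genes (76.7% together).

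**Figure D3:**
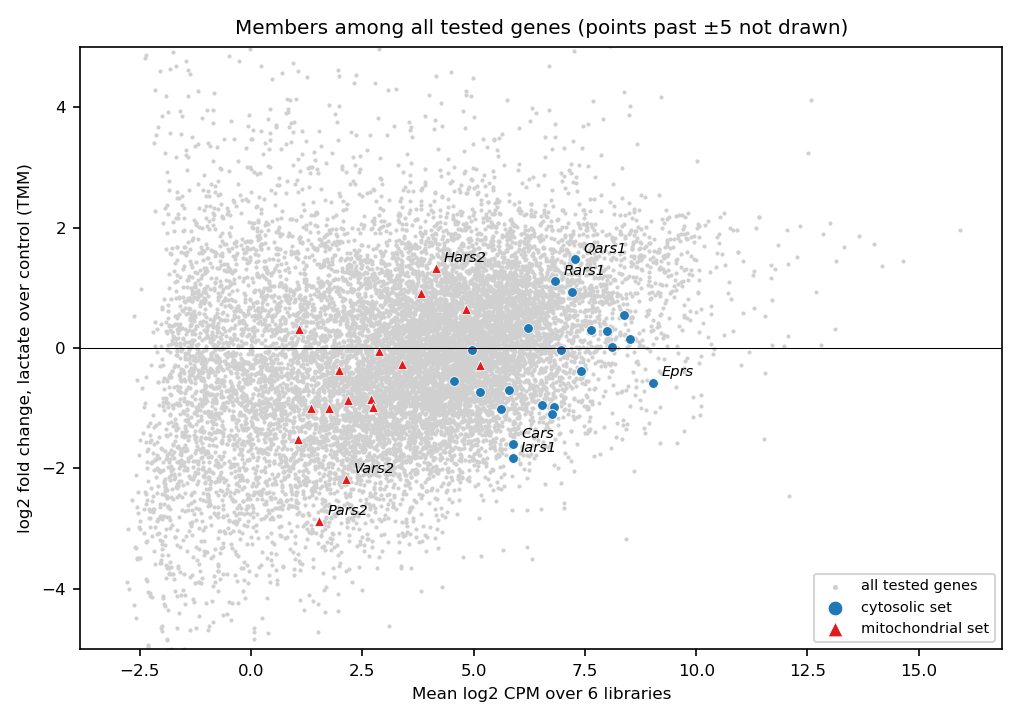
Log2 fold change with TMM factors against mean log2 CPM for all tested genes (grey), cytosolic members (circles) and mitochondrial members (triangles). Cytosolic members lie to the right, where the median of all genes in the most abundant group was 0.55, and Iars1, Cars and Eprs lie below 0.

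Genes of the multisynthetase complex moved in both directions. Of its 11 genes, which are 10 members and the scaffold Eef1e1, 4 rose (36.4%), 5 fell (45.5%) and 2 were not called. Over all genes 31.4% were called higher and 34.6% lower. With library totals 2 of the 11 were called higher and 7 lower, against 12.5% and 61.8% of all genes. Aimp1, a scaffold of the complex, had 38.4, 37.9 and 34.1 FPKM in control and 17.6, 18.7 and 23.0 in lactate libraries. It was near the bulk of genes (-0.03 ± 0.11, edgeR adjusted p = 0.83) and was called lower with library totals (-0.89). Removing the length trend also gave a lower call for Aimp1 (-0.37, edgeR adjusted p = 0.019). Aimp2 went from 36.5, 33.0 and 33.6 to 13.5, 12.04 and 13.6 FPKM and fell by 0.55 ± 0.11 (edgeR adjusted p = 0.0024). Eef1e1 rose by 0.93 ± 0.13 and was at 0.07, not called, with library totals. A ratio of counts within a library is free of the scale, and ratios to Aimp1, chosen after the values were seen, separated the groups for 9 of the 10 other genes, 4 higher and 5 lower. Between all pairs of tested genes 69.4% of such ratios did not overlap between groups. The log2 ratio of Qars1 to Aimp1 was 1.58, 1.55 and 1.57 in control and 3.17, 3.20 and 2.86 in lactate libraries. The log2 ratio of Iars1 to Aimp1 was 2.01, 1.64 and 1.83 in control and -0.10, -0.23 and 0.33 in lactate libraries. Qars1, Rars1, Kars and Eef1e1 gained on Aimp1 by 1.51, 1.14, 0.97 and 0.97, while Dars, Lars1, Eprs and Aimp2 changed by -0.97, -0.95, -0.54 and -0.52. Mars1 kept its ratio, at 2.00 ± 0.08 and 1.99 ± 0.19 (SD, n = 3). With 3 libraries against 3 the exact two-sided permutation test cannot go below p = 0.1, which each of the 9 reached (adjusted p = 0.111 over the 10 ratios).

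**Figure D4:**
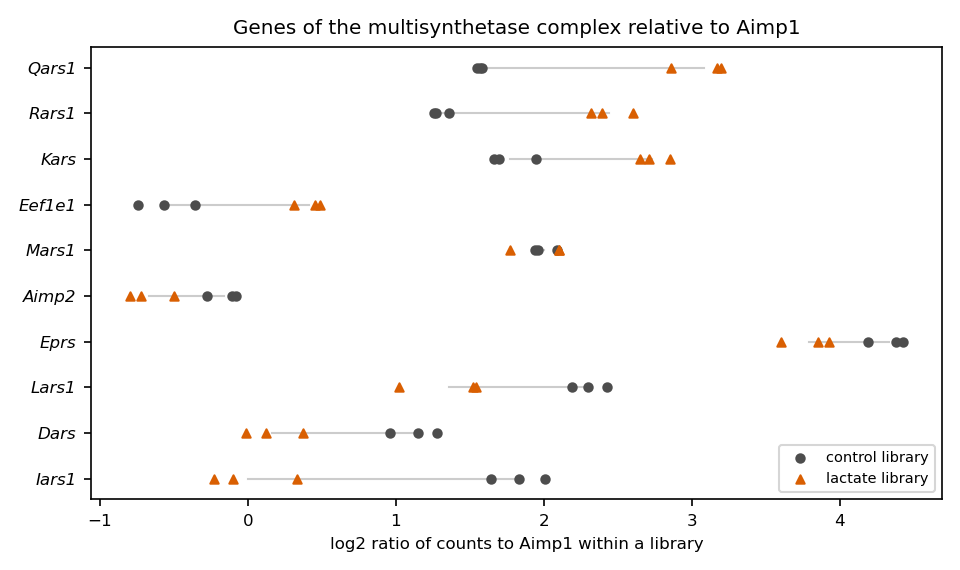
Log2 ratio of counts to Aimp1 within each library for the other genes of the multisynthetase complex, control as circles and lactate as triangles, with a line between the group means. Qars1, Rars1, Kars and Eef1e1 lie higher in every lactate library than in any control, Iars1, Dars, Lars1, Eprs and Aimp2 lower, and Mars1 overlaps.

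By enzyme class, 3 of 10 cytosolic class I genes rose and 6 fell (median -0.76), and 4 of 10 class II genes rose and 4 fell (median 0.08), where 31.4% of all genes were called higher and 34.6% lower. Eprs, which serves both glutamate and proline, was counted in class I only. Of the mitochondrial genes 0 of 9 class I rose and 6 fell (median -0.85), and 3 of 8 class II rose and 4 fell (median -0.52). With library totals the medians were -1.62, -0.78, -1.71 and -1.37. In that setting 2 cytosolic class I and 0 class II genes were called higher, and 8 of each lower. Of the mitochondrial genes 0 class I and 1 class II were called higher, and 8 and 5 lower. Over all genes the shares in that setting were 12.5% higher and 61.8% lower.

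The mitochondrial enzymes were far less abundant, with a median of 3.99 FPKM in control libraries against 56.1 for the cytosolic set. Hars2 (histidine) had the largest rise among them. It had 4.63, 3.42 and 4.92 FPKM in control and 5.70, 5.66 and 6.47 in lactate libraries, which did not overlap. Hars2 rose by 1.33 ± 0.15 (edgeR adjusted p = 9.2e-05), and by 0.47 with library totals (edgeR adjusted p = 0.036). Hars1 is the next protein-coding gene to Hars2 in the rat assembly GRCr8, and the 2 are close copies. Whether the counting split reads between them was not tested. Fars2 (phenylalanine) was at 9.50, 7.94 and 7.23 FPKM in control and 8.31, 6.44 and 9.28 in lactate libraries, which overlapped. Fars2 was called higher with TMM factors (0.91 ± 0.16, edgeR adjusted p = 0.0012) and not with library totals (0.06). Tars2 (threonine) had 13.1, 13.0 and 11.9 FPKM in control and 10.9, 11.4 and 10.1 in lactate libraries, all of them lower. Even so, Tars2 was called higher with TMM factors (0.65 ± 0.13, edgeR adjusted p = 0.0022) and was at -0.22, not called, with library totals.

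Pars2 (proline) fell most of all members. It had 3.42, 3.31 and 3.38 FPKM in control and 0.134, 0.116 and 0.513 in lactate libraries, the last standing apart from the other 2. Pars2 fell by 2.87 ± 0.46 (edgeR adjusted p = 0.00059), on 1222 control and 88 lactate counts, and was at -3.78 without lactate replicate 3. Vars2 (valine) went from 3.19, 3.37 and 3.45 to 0.426, 0.248 and 0.526 FPKM and fell by 2.18 ± 0.25 (edgeR adjusted p = 7.9e-05). Ears2 (glutamate) went from 2.07, 2.51 and 2.38 to 0.300, 0.346 and 0.690 FPKM and fell by 1.51 ± 0.32 (edgeR adjusted p = 0.0028). In these 3 genes no lactate library reached a control library. Nars2, Cars2, Aars2, Yars2 and Rars2 fell by 1.00, 1.00, 0.98, 0.86 and 0.85. Cars2, on 169 lactate counts, lost its call when any library other than lactate replicate 1 was left out (edgeR adjusted p up to 0.086), and Yars2 without control replicate 1 (edgeR adjusted p = 0.055). Iars2 (isoleucine), the most abundant mitochondrial enzyme in control libraries, had 17.7, 15.5 and 17.3 FPKM in control and 7.38, 6.73 and 8.54 in lactate libraries. It fell by 0.29 ± 0.10 (edgeR adjusted p = 0.036), a call that was lost with the length trend removed (-0.17) and without any library other than lactate replicate 3 (edgeR adjusted p up to 0.12). Lars2, Wars2, Sars2 and Mars2 (-0.26, -0.37, -0.05 and 0.32) were not called with TMM factors, and the first 3 were called lower with library totals.

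The balance between compartments was compared amino acid by amino acid. Summed over each set, the cytosolic counts were 19.8 to 21.2 times the mitochondrial counts in control libraries and 20.3 to 21.5 times in lactate libraries, ranges that overlapped. In summed FPKM the cytosolic set was at 17.6 to 18.7 times the mitochondrial set in control libraries and at 18.7 to 20.5 times after lactate, so that the groups only touched. Of 17 amino acids with an enzyme in each compartment (Eprs standing for glutamate and for proline, Farsa for phenylalanine), the log2 ratio of cytosolic to mitochondrial counts moved toward the cytosolic enzyme with no overlap in 8, toward the mitochondrial enzyme in 5, and overlapped in 4. That is 13 of 17, a share near the 69.4% of all gene pairs, so the count says nothing particular to these enzymes. The gains of proline and valine were the largest and did not differ beyond their spread. For proline the log2 ratio of Eprs to Pars2 was 6.13, 6.39 and 6.17 in control and 9.37, 9.57 and 7.52 in lactate libraries. Without lactate replicate 3 the change was 3.24, and without lactate replicate 1 it was 2.32, below the 2.62 of valine. Eprs fell less than Pars2, from 164, 190 and 167 to 62.9, 63.2 and 65.3 FPKM. For valine the log2 ratio of Vars1 to Vars2 was 4.42, 4.16 and 4.22 in control and 6.59, 7.44 and 6.34 in lactate libraries. Here the FPKM of Vars1 was 67.2, 62.2 and 64.2 in control and 43.4, 43.8 and 51.0 in lactate libraries. For arginine the log2 ratio of Rars1 to Rars2 was 3.40, 3.05 and 3.08 in control and 5.07, 4.92 and 5.41 in lactate libraries. Rars2 went from 5.01, 6.26 and 5.94 to 1.81, 1.84 and 1.54 FPKM while Rars1 was higher, so that the 2 arginine enzymes moved in opposite directions. The changes were 2.59, 2.52 and 1.96 for these 3 amino acids, and 1.20 for alanine, 1.01 for asparagine, 0.99 for glutamate and 0.34 for serine.

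The opposite shift was largest for phenylalanine. The log2 ratio of Farsa to Fars2 was 1.99, 2.12 and 2.34 in control and 0.30, 0.82 and 0.40 in lactate libraries, a change of -1.64. Farsa went from 33.4, 32.3 and 33.3 to 10.01, 10.6 and 11.98 FPKM. For isoleucine the log2 ratio of Iars1 to Iars2 was 1.70, 1.49 and 1.38 in control and -0.28, -0.18 and 0.33 in lactate libraries, a change of -1.57, which brought the cytosolic transcript to about the count of the mitochondrial transcript. For threonine the log2 ratio of Tars1 to Tars2 was 3.11, 3.05 and 3.11 in control and 2.11, 1.89 and 2.22 in lactate libraries, a change of -1.02. Tars1 went from 86.3, 82.4 and 78.4 to 35.8, 32.1 and 36.0 FPKM. Histidine changed by -1.0, with the limit given above for the reads of Hars1 and Hars2, and leucine by -0.72. Tryptophan (-0.66), cysteine (-0.50), methionine (-0.31) and tyrosine (-0.09) overlapped between groups. Each of the 13 shifts without overlap had the smallest p that the exact permutation test of 3 against 3 allows, 0.1 (adjusted p = 0.131 over the 17 amino acids).

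**Figure D5:**
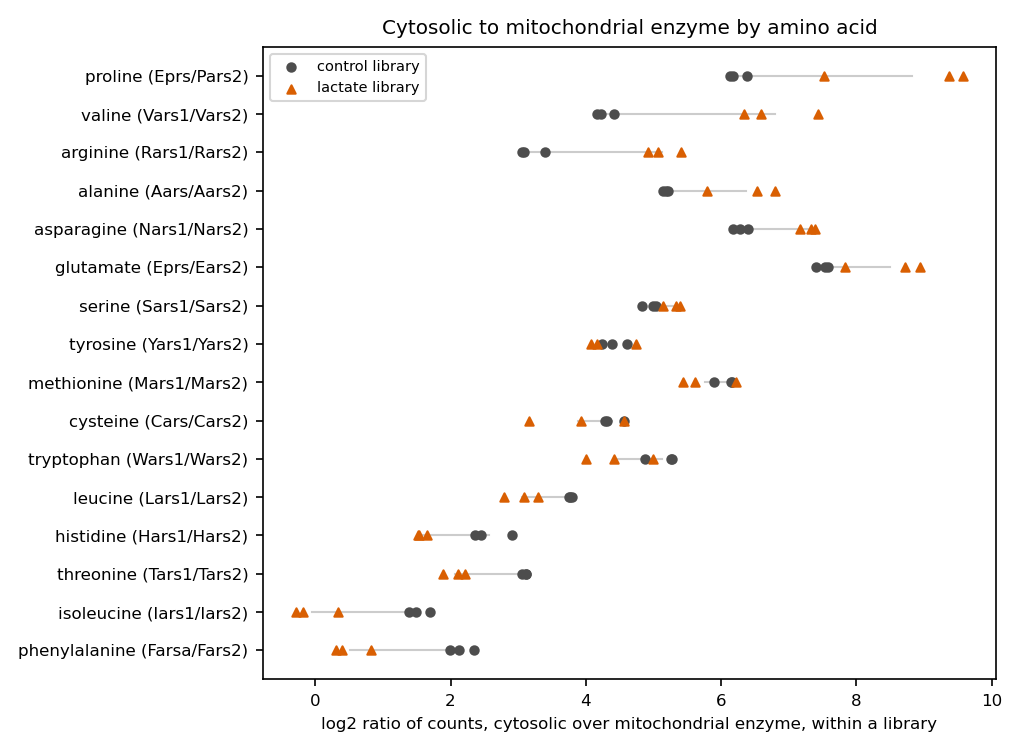
Log2 ratio of counts of the cytosolic over the mitochondrial enzyme by amino acid within each library, control as circles and lactate as triangles, with a line between the group means. Lactate points lie farthest to the right of control for proline and valine, and farthest to the left for phenylalanine and isoleucine.

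Synthetase genes known as targets of ATF4 were counted apart, from a list of 12 cytosolic enzymes. Of these 2 rose (Gars, Sars1), 7 fell and 3 were not called, with a median log2 fold change of -0.48. Of the 8 other cytosolic enzymes 5 rose and 3 fell, with a median of 0.32. Over all tested genes 31.4% were called higher and 34.6% lower. With library totals the medians were -1.34 and -0.54, with 0 and 2 genes called higher and 11 and 5 lower. In that setting 12.5% of all genes were called higher and 61.8% lower. Of 20 genes of the ATF4 and amino acid response 7 rose, 4 fell and 9 were not called (median -0.18, and -1.05 with library totals). With library totals 5 of the 20 were called higher and 13 lower. The gene of the stress-linked transcription factor CHOP, Ddit3, rose by 4.69 ± 0.15 (edgeR adjusted p = 4.9e-07). Slc3a2, the shared chain of several amino acid transporters, rose by 1.52 ± 0.10, and Sesn2, a sensor of leucine, by 1.89 ± 0.17. Slc7a11, the cystine transporter, fell by 2.42 ± 0.17. Atf4 itself and Asns, asparagine synthetase, were chosen after their values were seen. The Atf4 transcript rose by 1.34 ± 0.16 and Asns fell by 0.38 ± 0.13 (edgeR adjusted p = 0.031).

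ATF4 acts through a composite element whose core was searched as TGATGNAA on both strands of RefSeq promoter windows of the rat assembly GRCr8, from 250 bases before to 50 after each gene's start. Of the members 38 matched a RefSeq symbol and 35 had a window. The letters occurred in 7 of 19 cytosolic windows (36.8%) and in 0 of 16 mitochondrial windows, against 3.98% of all 33469 windows. All 7 genes, Aars, Cars, Iars1, Mars1, Nars1, Tars1 and Yars1, were among the ATF4 targets listed above. With TMM factors 4 of the 7 fell and the others were not called, where 34.6% of all genes fell. Of the 19 cytosolic genes with a window 10 fell, a share near that among the 7. By call, the letters occurred in 4 of the 10 that fell, 0 of the 5 that rose and 3 of the 4 not called. The log2 fold changes of the 7 ran from -1.83 (Iars1) to 0.14 (Aars, called higher at 0.31 with the length trend removed). In 5 a match lay before the start, with a second match after the start in Aars, and in Cars and Yars1 the match lay after it. A match is a description of the letters and not evidence of binding. The 10-base palindromic motif of NRF1, a regulator of many mitochondrial genes, occurred in 1 of the 16 mitochondrial windows (Wars2) and in 0 of the 19 cytosolic ones, against 0.852% of all windows. The stretches around the match are shown for 4 of the genes, to set a gene that fell strongly (Iars1) and one that fell slightly (Tars1) beside those not called (Aars, Mars1). They are on the gene's strand, 5′ to 3′, with the match in capitals, which in each of the 4 reads TTGCATCA, the element on the opposite strand.
Iars1: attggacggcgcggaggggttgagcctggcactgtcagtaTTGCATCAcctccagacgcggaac
Tars1: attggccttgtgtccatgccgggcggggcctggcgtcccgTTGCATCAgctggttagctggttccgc
Aars: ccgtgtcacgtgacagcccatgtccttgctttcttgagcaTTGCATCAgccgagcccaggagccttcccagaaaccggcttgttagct
Mars1: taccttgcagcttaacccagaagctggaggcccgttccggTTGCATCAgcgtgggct

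Genes that work beside the synthetases moved in their own ways. Of 13 relatives outside the rule, which include tRNA editing, export and amidation factors, 1 rose, 4 fell and 8 were not called. With library totals 0 of the 13 were called higher and 10 lower. For this and the lists below, the shares of all genes were 31.4% higher and 34.6% lower. With library totals they were 12.5% and 61.8%. Eef1e1 rose (above), while Dtd2, which removes wrongly attached amino acids, fell by 1.83 ± 0.28. Gatb and Gatc, subunits of the amidotransferase that makes mitochondrial glutaminyl-tRNA, fell by 1.29 ± 0.25 and 0.75 ± 0.17 (edgeR adjusted p = 0.0017 and 0.0037). The third subunit, Qrsl1, named after its value was seen, did not pass the test (0.79 ± 0.32, edgeR adjusted p = 0.054). The cytosolic glutamine enzyme Qars1 thus rose while these 2 subunits of the mitochondrial glutamine route fell. Of 10 genes that deliver charged tRNA in the cytosol or sense uncharged tRNA, 7 rose, 1 (Gcn1, an activator of the kinase that senses uncharged tRNA, -0.48) fell and 2 were not called. All but Eef1e1 and the kinase gene Eif2ak4 were in the most abundant group by level. In that group 59.2% of all genes were called higher and 19.8% lower. Once the length trend was removed Gcn1, a long transcript, no longer passed (0.06, edgeR adjusted p = 0.62). The elongation factor genes Eef1a1, Eef1b2 and Eef1g rose by 2.07 ± 0.13, 2.03 ± 0.16 and 1.85 ± 0.11, and the initiation factor gene Eif2s3 by 1.19 ± 0.11. Those 4 of the 10 were also called higher with library totals, and 3 of the 10 were called lower. Among these 3 was Eef1d, at 0.62 with TMM factors and -0.25 with library totals. Of 20 genes of mitochondrial translation and tRNA modification 4 rose, 7 fell and 9 were not called. The lists overlap, and Gatb, Gatc, Qrsl1, Mtfmt and Trnt1 are counted both here and among the relatives. Eef1e1 is counted among the relatives, among the delivery genes and in the complex. With library totals 0 of the 20 were called higher and 15 lower. The initiation factor Mtif3 fell by 2.26 ± 0.19 and the tRNA methyltransferase Trmt5 by 1.73 ± 0.20. The elongation factor Tufm, which carries charged tRNA to the mitochondrial ribosome, rose by 1.20 ± 0.11, and the tRNA modification enzyme Mto1 by 0.91 ± 0.16, and neither was called with library totals.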

How the data were processed

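RNA sequencing libraries of 3 control and 3 lactate samples were compared. The authors deposited, per the file headers, raw counts per gene, FPKM, and their own comparison with log2 fold changes, p-values and adjusted p-values. For the aligner, the counting tool, the annotation and strandedness, nothing is given in the sources used here. Mouse builds (GRCm38, mm10) stand in the submitters' processing notes while the gene names are those of the rat, so no coordinates are printed.

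Counts as deposited were tested with edgeR 4.0.16 (R 4.3.3, quasi-likelihood test, TMM factors, filterByExpr, 13747 genes kept). Group was the only term, and the Benjamini-Hochberg adjustment ran over all 13747 genes. The code was tested on simulated data in which few genes changed, so that test cannot check the choice of scale. Ratios within a library used counts + 0.5. Alternatives were other factors, library totals, other filters, DESeq2 1.42.0, limma 3.58.1 (voom, and trend on log2(FPKM + 1) and log2(FPKM + 0.1)), a replicate block, removal of the length trend, and each library left out. Relative length came from counts over FPKM. The members and lists were chosen with earlier results of these data known. All members enter the counts, and the values of 1 are not reported here or drawn. Those described by library were the 4 largest called rises and falls of each set, Aimp1, Aimp2, and the enzymes of the 3 most positive and 3 most negative ratio changes. Up to 4 genes with the smallest p were named from each other list. Counts of 0 allow up to 3 counts, for counting error only. Same-numbered libraries were not paired (correlations of their deviations 0.00776, 0.0381 and 0.084).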

Additional observations from a re-analysis of the deposited data

How the results depend on the processing

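The scale decided the direction of several members, among them Gars and Tars2, which were called higher with TMM factors. With library totals Hars1 was at -0.51, Vars1 -0.56, Sars1 -0.58, Aars -0.72, Nars1 -0.84, Gars -0.30, Tars2 -0.22 and Mars2 -0.56. With limma-trend on log2(FPKM + 1) they were at -0.52, -0.48, -0.58, -0.72, -0.82, -0.33, -0.21 and -0.31, and on log2(FPKM + 0.1) at -0.53, -0.49, -0.58, -0.73, -0.83, -0.34, -0.23 and -0.56, with Fars2 at -0.04 in both. Both FPKM settings called 2 cytosolic members higher and 18 lower and 1 mitochondrial member higher, as library totals did. Their medians were -1.06 and -1.08 for the cytosolic and -1.09 and -1.67 for the mitochondrial set, against -1.07 and -1.71 with library totals. With a pseudocount of 1, above the level of some mitochondrial genes, the medians differed by 0.03, against 0.64 with TMM factors. Upper-quartile factors gave 4 cytosolic members higher, a median of -0.36, Nars1 at -0.14 and Aars at -0.02. With the length trend removed the cytosolic median was -0.27 and Mars1 was at 0.05. RLE factors and DESeq2 put Mars1 and Aimp1 at 0.01, and no filter put Nars1 at -0.02.

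With each library left out in turn, the cytosolic median ran from -0.26 to -0.19 and the tyrosine ratio from -0.29 to 0.04. Mars1 ran from -0.09 to 0.05, Nars1 from -0.03 to 0.06, Aimp1 from -0.09 to 0.03 and Sars2 from -0.11 to 0.07. The replicate block left 11 cytosolic and 9 mitochondrial members lower, and ended only the call of Iars2 among the members (edgeR adjusted p = 0.051). The cause of these shifts was not tested. Mitochondrial members, with 12 to 1881 counts in a library, are the less precise set.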
